A study of Mus musculus with 6 samples.

Results

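The insulin receptor family of the mouse comprises 3 receptor tyrosine kinases, namely the insulin receptor (Insr), the receptor of insulin-like growth factor 1 (Igf1r) and the insulin receptor-related receptor (Insrr), and it is described here together with the insulin receptor substrates Irs1, Irs2 and Irs4. Insrr was selected on its own rise between the genotypes compared here, and the other 5 genes were chosen by family. The 6 genes are among 47937 rows of the count table, and 5 of them are among the 20006 tested, for which a total of at least 10 counts was required. The values of Insrr in this contrast are therefore given as a description with no test.

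Total RNA of dorsal root ganglions (DRGs) from the cervical, thoracic and lumbar levels was sequenced from 3 control mice, labelled wild type, and 3 Tlx3cko mice, labelled Tlx3f/f;SNS-cre, all of the C57BL/6 strain and about 2 months old. The comparison asks how the loss of Tlx3, a homeobox transcription factor of sensory neurons, alters gene expression in the DRG. In Tlx3cko mice the floxed alleles are removed by Cre under the Nav1.8 (SNS) promoter, which is active in most nociceptive neurons from late embryonic life, so that other neurons and the glia of the ganglion keep the gene. Whether the wild-type mice carried floxed alleles or Cre is not stated in the labels.

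Receptors of this family sit in the plasma membrane as disulfide-linked dimers. Ligand binding leads to phosphorylation of tyrosines in the activation loop of the kinase, and then of substrate proteins. Irs1, Irs2 and Irs4 are such docking proteins, which pass the signal to phosphoinositide 3-kinase (PI3K) and Akt. Insulin acts through Insr, and the insulin-like growth factors act mainly through Igf1r. Insrr binds neither insulin nor insulin-like growth factors. It is activated by alkaline extracellular medium and is known from bicarbonate-secreting cells of the kidney and from sensory neurons.

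The kinase is the part the 3 receptors share most closely, and its activation loop is shown for the pair of ligand-binding receptors to let the likeness of their transcripts be seen. The 90 coding bases below run 5′ to 3′ on the coding strand of the GRCm38 transcripts, and capitals mark bases unlike Insr. They lie at coding positions 3499 to 3588 of Insr and 3463 to 3552 of Igf1r, counted from the start codon.
Insr: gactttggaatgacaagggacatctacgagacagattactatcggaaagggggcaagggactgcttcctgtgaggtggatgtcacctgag
Igf1r: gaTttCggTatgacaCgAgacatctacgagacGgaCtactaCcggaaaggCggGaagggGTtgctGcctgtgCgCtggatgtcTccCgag

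In this window Igf1r differed from Insr at 17 bases. Over the aligned coding sequences Insrr was 63.6% identical to Insr and 65.6% identical to Igf1r, while Insr and Igf1r were 67.2% identical to each other. The longest run of identical bases was 29 between Insrr and Insr and 23 between Insrr and Igf1r, shorter than the 150-base reads. At 98% identity, no stretch of 100 bases or more linked Insrr, Insr or Igf1r to another annotated gene. Among the substrates, Irs1 and Irs2 were 65.9% identical.

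The libraries held between 11458299 and 18775628 counts, and values below are normalized counts on the scale of a library of 14970767 effective counts, the mean of the 6. The targeted gene Tlx3 was counted 1828, 2262 and 2433 times in controls against 1717, 1052 and 1475 times in Tlx3cko mice, which is -0.46 ± 0.09 on the log2 scale (SE, adjusted p = 0.0122 by the quasi-likelihood test of edgeR, Benjamini-Hochberg adjusted). The call was lost without control replicate 2 (adjusted p = 0.0606), Tlx3cko replicate 2 (0.091) or Tlx3cko replicate 3 (0.0706), and against control replicate 3 alone, where the log2 fold change was -0.38 (0.175). Xist, of the inactive X chromosome, reached 591 and 493 counts in the control replicates numbered 1 and 2 but at most 2 in the other 4 libraries, and Ddx3y, on the Y chromosome, had 0 in the former and 273 to 525 in the latter. Sex was thus not balanced, and each member is also given below against control replicate 3 alone, with that lone library assumed to vary like the Tlx3cko group. Of the genes tested, 851 passed the threshold of an adjusted p under 0.05 (4.25%), of which 339 were higher (1.69%) and 512 lower (2.56%) in Tlx3cko DRGs.

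Insrr (ENSMUSG00000005640) occupies bases 87796951 to 87816101 of chromosome 3, plus strand. It collected 67, 24 and 43 reads in control replicates 1 to 3 against 359, 343 and 423 reads in Tlx3cko replicates 1 to 3. The normalized counts were 72.3, 23.9 and 34.3 for control against 345.5, 450.1 and 416.3 for Tlx3cko DRGs. Every Tlx3cko library stood above every control library, and the lowest Tlx3cko value was several times the highest control value. The mean was 43.5 ± 25.5 for control against 404 ± 53.4 for Tlx3cko (SD, n = 3 each), a ratio of 9.28 and a log2 fold change of 3.23 with a standard error of 0.29. The control libraries varied more, relative to their mean, than the Tlx3cko libraries. Leaving out control replicate 1, the highest of the controls, gave a log2 fold change of 3.77, and leaving out control replicate 2, the lowest, gave 2.96. Against control replicate 3 alone it was 3.55.

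Over the 6 libraries the mean normalized count of Insrr, not corrected for length, was above that of 54.9% of the genes tested. Among the 13373 genes averaging 50 normalized counts or more, 5 had a larger log2 fold change than Insrr. Over all genes tested, many of which had few counts, 42 did. These places by size of the change follow from the selection of Insrr for its rise and are no further result. Insrr reached a mean of 50 only through its Tlx3cko libraries, with means of 43.5 in control and 404 in Tlx3cko, and its place by abundance rests on them too. In whole ganglions, more cells that express a gene and more RNA per cell cannot be told apart, and the same holds for fewer cells and less RNA.

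**Figure D1:**
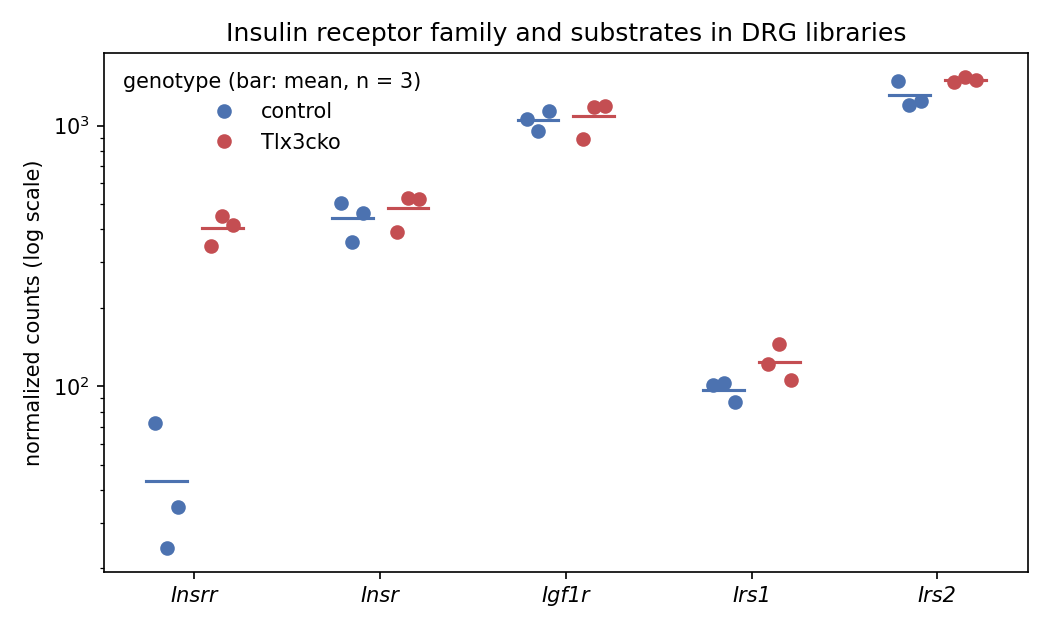
Normalized counts (log axis) of Insrr, Insr, Igf1r, Irs1 and Irs2 in the 3 control and 3 Tlx3cko libraries, with each point 1 library and each bar the group mean; Irs4, at 0 counts in every library, is not drawn. The Insrr groups are far apart, with 23.9 to 72.3 in control and 345.5 to 450.1 in Tlx3cko, whereas the groups of Insr, Igf1r and Irs2 overlap.

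Neither of the ligand-binding relatives of Insrr passed the threshold. Insr (ENSMUSG00000005534, chromosome 8 from 3122061 to 3279617, minus strand) had 506.2, 359.0 and 461.9 normalized counts in control against 389.8, 528.8 and 524.5 in Tlx3cko libraries. The groups overlapped, with 1 Tlx3cko library below 2 of the controls. The means were 442 ± 75.5 and 481 ± 79.1 (SD, n = 3 each), and the log2 fold change was 0.12 (standard error 0.15, 95% interval -0.21 to 0.45, adjusted p = 0.816 by edgeR's quasi-likelihood test).

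Igf1r (ENSMUSG00000005533, chromosome 7 from 67952827 to 68233668, plus strand) had 1058.8, 954.5 and 1141.5 normalized counts in control against 891.2, 1182.3 and 1183.9 in Tlx3cko libraries. The lowest and the highest value of Igf1r both came from Tlx3cko libraries. The means were 1052 ± 93.7 and 1086 ± 169 (SD, n = 3 each), with a log2 fold change of 0.04 (SE 0.12, 95% interval -0.21 to 0.30, adjusted p = 0.922 by edgeR's quasi-likelihood test). The intervals of Insr and Igf1r leave room for changes of up to 0.45 and 0.30 on the log2 scale. The signs of both turned without control replicate 2, to -0.01 for Insr and -0.02 for Igf1r, and against control replicate 3 alone they stood at 0.055 and -0.075.

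The substrates differed widely in abundance. Irs2 (ENSMUSG00000038894, chromosome 8 from 10984681 to 11008458, minus strand) had 1476.6, 1199.8 and 1238.8 normalized counts in control against 1470.6, 1541.8 and 1494.9 in Tlx3cko libraries. Control replicate 1 reached the Tlx3cko values, while the other control libraries lay below them. The means were 1305 ± 150 and 1502 ± 36.2 (SD, n = 3 each), and the log2 fold change was 0.20 (standard error 0.09, unadjusted p = 0.047, adjusted p = 0.334 by edgeR's quasi-likelihood test).

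Irs1 (ENSMUSG00000055980, chromosome 1 from 82233101 to 82291416, minus strand) had 101.5, 102.7 and 86.9 normalized counts in control against 122.2, 145.7 and 105.3 in Tlx3cko libraries. The groups did not overlap, although the closest libraries were separated by only a few counts, and such a separation was found for 19.7% of the genes tested. The means were 97.0 ± 8.77 and 124 ± 20.3 (SD, n = 3 each), with a log2 fold change of 0.36 (SE 0.20, 95% interval -0.07 to 0.78, adjusted p = 0.464 by edgeR's quasi-likelihood test). Of the Irs1 exons, 2822 bases (30.9%) lie opposite exons of Gm9747 on the other strand, and how reads there were assigned is not known, so the values of Irs1 are uncertain. Gm9747 itself had 194, 244 and 244 counts in control against 173, 240 and 251 in Tlx3cko libraries (adjusted p = 0.808). For Irs2 the overlap with an opposite-strand gene, 9530052E02Rik, was 162 bases (2.56%).

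Irs4 (ENSMUSG00000054667, chromosome X from 141710998 to 141725263, minus strand) had 0 counts in all 6 libraries, which by counting error alone allows up to 3 counts in each, and was not tested. Of the 4 members tested besides Insrr, 0 passed the threshold, and 1, Irs2, had an unadjusted p under 0.05. With 4.25% of all genes past the threshold, 0 of 4 does not set these members apart. Against control replicate 3 alone Irs1 stood at 0.51 (adjusted p = 0.553) and Irs2 at 0.28 (0.306). DESeq2 and limma-voom also called 0 of the 4, as did every fit that left out 1 library.

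**Figure D2:**
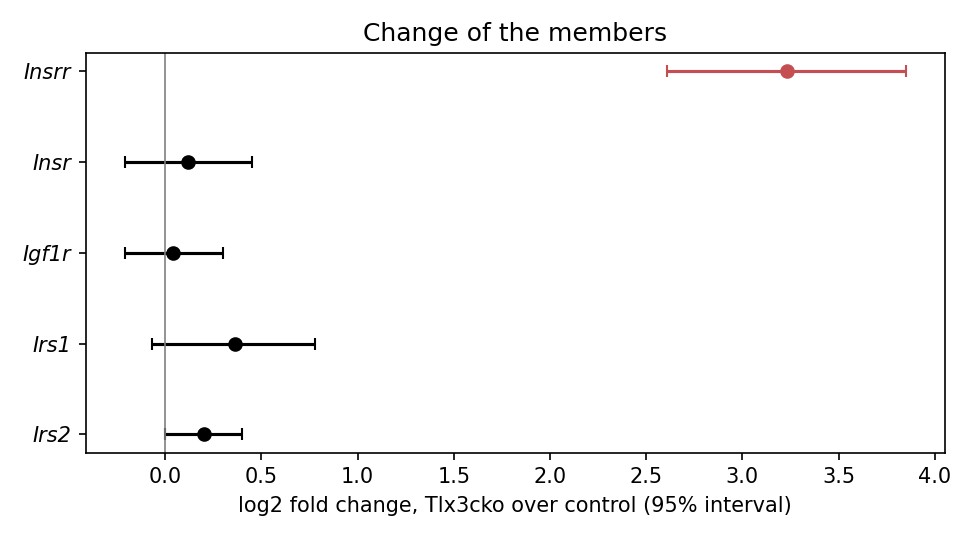
Log2 fold change of the 5 measured members, Tlx3cko over control, with 95% intervals from edgeR's fit; Insrr (red) was chosen for its rise and its interval is drawn for scale only. Insrr stands at 3.23, and the other 4 members lie between 0.04 and 0.36.

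Because the genes differ in length, their levels were compared as normalized counts per kb of annotated exons. In control DRGs the order was Irs2 (206 ± 23.7), Igf1r (62.6 ± 5.58), Insr (32.2 ± 5.49), Irs1 (10.6 ± 0.959), Insrr (7.62 ± 4.46) and Irs4 (0), each per kb (SD, n = 3). In Tlx3cko DRGs Insrr, at 70.7 ± 9.34 per kb, came second after Irs2 (238 ± 5.73) and was followed by Igf1r (64.7 ± 10.04), Insr (35.0 ± 5.75) and Irs1 (13.6 ± 2.22). The other 4 detected members kept their order among themselves.

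Neighbours in this order other than Insrr did not overlap between libraries. In control DRGs Irs2 was 3.30-fold above Igf1r, Igf1r 1.95-fold above Insr, and Insr 3.03-fold above Irs1. In Tlx3cko DRGs these ratios were 3.67, 1.85 and 2.57. All were measured in the same 3 libraries of a genotype, and these ratios are given without a test. The libraries of Insrr overlapped those of Irs1 in control, where control replicate 1 stood at 12.7 per kb of Insrr, and those of Igf1r in Tlx3cko, where Insrr had 60.5, 78.8 and 72.9 and Igf1r 53.1, 70.4 and 70.5 per kb. Within the control libraries Insrr stood above Irs1 in replicate 1 and below it in replicates 2 and 3, so these were not ranked. Within each Tlx3cko library Insrr stood above Igf1r. With the longest transcript as the length, however, Igf1r (95.2 per kb) came before Insrr (79.2 per kb) in Tlx3cko, so their order depends on the length used. Reads were not recounted over the 6322 exon bases that Irs1 does not share with Gm9747. If all Irs1 counts came from those bases, Irs1 would stand at 15.3 ± 1.39 per kb in control and 19.7 ± 3.21 in Tlx3cko (SD, n = 3 each). In that case its place in the order would be the same. Gm9747 had means of 215.8 normalized counts in control and 242.8 in Tlx3cko, above the 97.0 and 124 of Irs1. How many of those reads came from Irs1 is not known, and the place of Irs1 with them added was not computed.

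**Figure D3:**
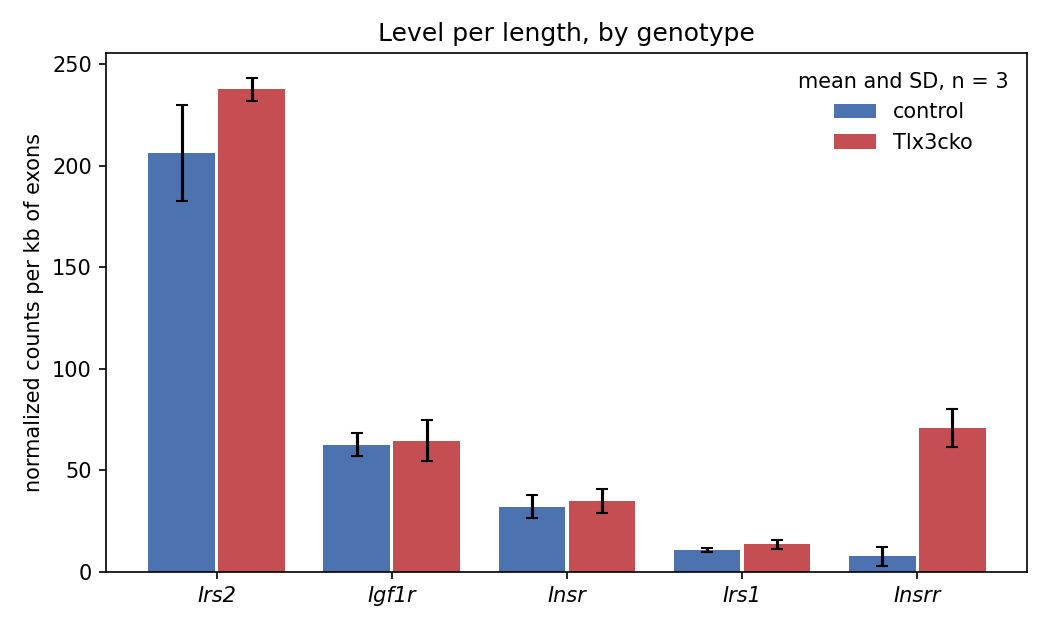
Normalized counts per kb of exons for 5 members in control and Tlx3cko DRGs, as mean with SD over 3 libraries, ordered by the control level. Insrr is the lowest of the 5 in control, at 7.62, and stands beside Igf1r in Tlx3cko, at 70.7 against 64.7.

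As a share of the 3 receptors summed per kb, Insrr made up 11.2%, 4.81% and 5.58% in control against 42.6%, 42.0% and 40.1% in Tlx3cko libraries. The receptor transcripts of control DRGs were thus mostly Igf1r, at 61.5 ± 4.83% (SD, n = 3), followed by Insr at 31.3 ± 1.38%. In Tlx3cko DRGs Igf1r and Insr made up 37.9 ± 0.799% and 20.5 ± 0.519% (SD, n = 3 each). These shares move together by construction, and the levels of Igf1r and Insr themselves did not pass the threshold. The shares and the ratio below also rest on the exon length used. With the longest transcript as the length, Igf1r (95.2 per kb) stood above Insrr (79.2) and Insr (51.4) in Tlx3cko, and the shares were not recomputed. The ratio of Insrr to Insr, both per kb, was 0.344, 0.160 and 0.179 in control against 2.13, 2.05 and 1.91 in Tlx3cko libraries.

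Genes with their start within 100 kb of the Insrr start were examined, since adjacent genes may share reads. Pear1, a transmembrane receptor known from platelets and endothelium, is annotated on the minus strand from 87747890 to 87824306, and its start lies 27355 bases from that of Insrr. It rose from 220.5 ± 56.0 to 582 ± 59.7 normalized counts (SD, n = 3 each), or by 1.41 on the log2 scale (standard error 0.17, adjusted p = 0.000272 by edgeR's quasi-likelihood test). Of its 17 annotated transcripts, 2 span Insrr, but their exons share 0 bases with those of Insrr. Pear1 shares 321 exon bases (4.73%) with Lrrc71 on the same strand. The endothelial markers beside it had 1 of 6 genes past the threshold, where 4.25% of all genes tested passed it. This was Pecam1, at a log2 fold change of 0.66 (adjusted p = 0.0202 by edgeR's quasi-likelihood test). The summed level of these 6 markers ranged from 705.9 to 864.6 in control and from 931.6 to 1039.3 normalized counts in Tlx3cko libraries. Their part in the rise of Pear1 was not tested.

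Lrrc71 and Prcc, farther out, did not pass the threshold. Lrrc71, whose start is 48326 bases away, had a log2 fold change of -0.10 (95% interval -0.32 to 0.12, adjusted p = 0.751), and Prcc, at 88657 bases, one of 0.03 (95% interval -0.19 to 0.25, adjusted p = 0.943). Sh2d2a, which encodes a T cell adaptor protein, had at most 4 counts in any library.

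**Figure D4:**
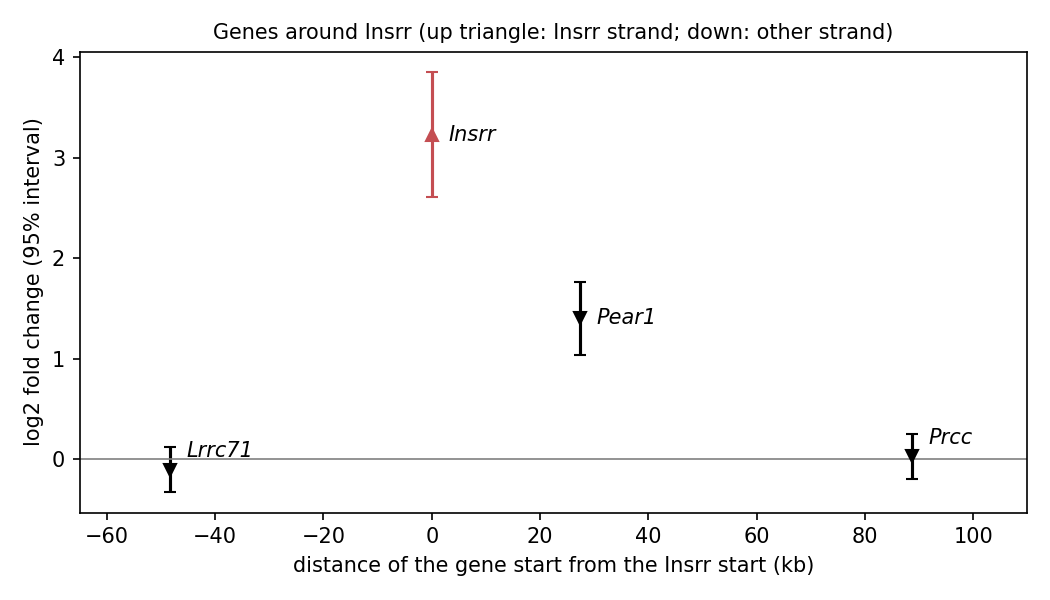
Log2 fold change, Tlx3cko over control, of Insrr, Pear1, Lrrc71 and Prcc against the distance of their start from the Insrr start in kb, with 95% intervals; triangles point up for genes on the strand of Insrr and down for the other strand. Pear1 (1.41) lies above 0 beside Insrr (3.23), and the intervals of Lrrc71 and Prcc include 0.

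The markers of neuron classes moved between the genotypes. For comparison with the counts below, 1.69% of all genes tested were higher and 2.56% lower. Of 8 genes of peptidergic neurons, 3 were higher in Tlx3cko DRGs, among them Trpv1, the capsaicin receptor (1.21), and Calca, the precursor of the neuropeptide CGRP (0.47), and the other peptidergic genes, among them 3 with log2 fold changes between -0.36 and -0.12, did not pass the threshold. The summed level of the 8, set mostly by the more abundant genes among them, was 25659.0 to 26901.6 in control and 40826.6 to 44774.2 normalized counts in Tlx3cko libraries. All 6 markers of non-peptidergic neurons were lower, among them Mrgprd (-1.81), and so were all 4 markers of C-fibre touch neurons, among them Th (-2.91), with Gfra2 in both lists. Myelinated neuron markers had 3 of 7 genes higher (Nefh, Pvalb and Cntnap2, at 0.36 to 0.59). Of 7 genes common to DRG neurons 0 passed the threshold, nor did any of 6 satellite glia genes, while Egr2 (0.81) was higher among 6 Schwann cell genes. The part of these shifts in the level of Insrr was not tested.

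Skeletal muscle markers also varied, and their summed level was 2140.4, 587.4 and 111.7 in control and 3063.4, 2560.1 and 1627.8 normalized counts in Tlx3cko libraries. No gene of this list was at 0 in all libraries. Of its 7 genes 1 passed the threshold, Myh4 (2.87, adjusted p = 0.0101 by edgeR's quasi-likelihood test), beside 4.25% of all genes tested. Among the controls, replicate 1 had the highest Insrr level and the most muscle RNA. Replicate 2 had the lowest Insrr level of the controls, and replicate 3 the least muscle RNA. Among the Tlx3cko libraries, replicate 1 had the most muscle RNA but the lowest Insrr level (345.5 normalized counts). Tlx3cko replicate 2 had the highest Insrr level (450.1), and Tlx3cko replicate 3 the least muscle RNA. Whether muscle RNA takes part in the level of any member was not tested. Of the markers of adipocytes, spinal cord, immune cells and blood, 0 of 4, 3, 6 and 4 tested passed the threshold.

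The genes whose log2 normalized counts followed Insrr most closely over the 6 libraries were, among 13372 genes averaging 50 normalized counts or more, Chrm2 (Pearson r = 0.9991), Agrn (0.9983), Clmp (0.9971), Faim2 (0.9957) and Col25a1 (0.9956). These correlations are descriptions over 6 libraries in 2 groups, so any gene with well separated groups scores high, and 224 genes had r over 0.95. Chrm2, the M2 muscarinic acetylcholine receptor, had 304.4, 183.5 and 228.9 normalized counts in control against 664.1, 750.6 and 693.8 in Tlx3cko libraries, the same order of libraries as Insrr. Agrn encodes agrin, an organizer of the neuromuscular junction, Clmp an adhesion molecule, Faim2 an inhibitor of Fas-induced death, and Col25a1 a transmembrane collagen, and their means rose by 1.41-, 1.64-, 1.54- and 3.02-fold.

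At the other end were C1ql4 (r = -0.9983), Phactr1 (-0.9982), Cpe (-0.9981), Tmem72 (-0.9980) and Th (-0.9974), and 242 genes had an r below the negative of the same limit. Cpe, the carboxypeptidase that trims insulin and other prohormones, was at 17089 ± 1126 normalized counts in control and fell to 13143 ± 110 in Tlx3cko (SD, n = 3 each), which is 76.9%. Th, tyrosine hydroxylase, marked the control libraries in the reverse order, with 973.6, 1958.8 and 1658.4 normalized counts where Insrr had 72.3, 23.9 and 34.3.

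Of the ligands and their binding and processing proteins, 17 of 22 listed genes were tested and 0 passed the threshold in either direction, with a median log2 fold change of 0.09 beside -0.004 for all genes tested. The insulin genes Ins1 and Ins2 had 0 counts in all 6 libraries. Igf1 was scarce, at 26, 33 and 48 counts in control against 31, 24 and 43 in Tlx3cko libraries. Igf2, the second insulin-like growth factor, had 251.5, 295.2 and 185.1 normalized counts in control against 170.4, 139.1 and 129.9 in Tlx3cko libraries, a log2 fold change of -0.73 that missed the threshold (adjusted p = 0.0509). The most abundant gene of the list was Pcsk2, a convertase of prohormones, with 3125 ± 272 and 3318 ± 98.8 normalized counts (SD, n = 3 each). Igf1 and Igf2 are named here after their values were seen.

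Among 41 adaptors and inhibitors of the receptors, 1 was higher and 4 were lower (12.2%, beside 4.25% of all genes tested, 1.69% higher and 2.56% lower), and the median log2 fold change was -0.02. The pathway lists were not matched in abundance to all genes tested. Of those 20006 genes, 13373 averaged 50 normalized counts or more, and scarcer genes are less readily called. Socs2, a suppressor of cytokine and growth hormone signalling, fell from 322.7, 376.0 and 442.7 to 183.8, 156.2 and 196.8 normalized counts, a log2 fold change of -1.09 (SE 0.15, adjusted p = 0.000987 by edgeR's quasi-likelihood test). Gab1, a docking protein akin to the insulin receptor substrates, fell by 0.60 on the log2 scale (adjusted p = 0.0054). These were the adaptors whose calls held in every fit that left out 1 library, with the highest adjusted p at 0.00898 for Socs2 and 0.0381 for Gab1, and the call of Gab1 was lost against control replicate 3 alone (0.108), where it stood at -0.48.

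Shc1, an adaptor to Ras, stood at -0.49 (adjusted p = 0.0196), Socs7, which binds insulin receptor substrates, at -0.30 (0.0402), and Sh2b3, the adaptor Lnk, at 0.64 (0.0436). Each of these calls turned on single libraries. That of Shc1 was lost without Tlx3cko replicate 2 (0.126), Tlx3cko replicate 3 (0.0669), control replicate 2 (0.0897) or control replicate 3 (0.0698), and that of Socs7 without any 1 of the 6 (0.0506 to 0.199). That of Sh2b3 was lost without any 1 library (0.0627 to 0.16) except control replicate 2. Against control replicate 3 alone Socs7 (-0.35, 0.109) and Sh2b3 (0.89, 0.0543) were not called either. The most abundant gene of this list, Dok4, a docking protein of receptor tyrosine kinases, had a log2 fold change of -0.10 (adjusted p = 0.631).

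Of 47 genes of the PI3K, Akt, mTOR and Foxo path, 3 were higher and 3 lower (12.8%, beside the 4.25% of all genes tested, again not matched in abundance), and the median log2 fold change was -0.00. The lower genes included Bad, a cell death protein held in check by Akt, at -1.15 (adjusted p = 0.000193), and Deptor, an inhibitor of mTOR, at -0.81 (3.12e-05). Deptor had 2788.0, 2652.0 and 2771.9 normalized counts in control against 1563.0, 1614.0 and 1503.8 in Tlx3cko libraries. Every Tlx3cko library lay below every control library. The calls of Bad and Deptor held under all 14 alternatives.

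The 3 higher genes were Slc2a3, a glucose transporter of neurons, at 0.48 (adjusted p = 0.00718), Pik3r1, the regulatory subunit of PI3K that binds phosphorylated substrates, at 0.38 (0.0462), and Sgk1, a kinase related to Akt, at 0.59 (0.0466). The call of Slc2a3 held without any single library and was lost against control replicate 3 alone (0.0715), where the log2 fold change was 0.45. The call of Pik3r1 was lost without Tlx3cko replicate 1 (0.111), 2 (0.0827) or 3 (0.171) or control replicate 2 (0.128), and that of Sgk1 without any 1 of the 6 libraries (0.0502 to 0.17). Against control replicate 3 alone they stood at 0.26 (0.298) and 0.41 (0.352), and with library totals in place of TMM Pik3r1 also missed the threshold (0.0515). Akt1, the most abundant gene of the list, had 4847 ± 120 and 4578 ± 340 normalized counts (SD, n = 3 each).

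Of 33 genes for bicarbonate transport, carbonic anhydrases and pH sensing, listed because Insrr responds to alkaline medium, 31 were tested, 0 were higher and 2 lower (6.45%, near the 4.25% of all genes tested), with a median log2 fold change of 0.08. Slc4a1, the anion exchanger of red blood cells, had 84.2, 46.9 and 30.3 normalized counts in control against 7.7, 5.2 and 6.9 in Tlx3cko libraries, a log2 fold change of -2.97 (SE 0.47, adjusted p = 0.00229 by edgeR's quasi-likelihood test). Blood markers beside it had a summed level of 1388.3 to 3616.9 in control and 1629.8 to 2238.9 normalized counts in Tlx3cko libraries, which overlap. Car10, a carbonic anhydrase-related protein without known enzyme activity, stood at -0.43 (adjusted p = 0.00665). Against control replicate 3 alone Slc4a1 stood at -2.16 (0.153) and Car10 at -0.37 (0.13), and neither was called with that single control library. The most abundant gene, Slc4a2, a chloride and bicarbonate exchanger, stood at 0.36 (adjusted p = 0.0518).

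**Figure D5:**
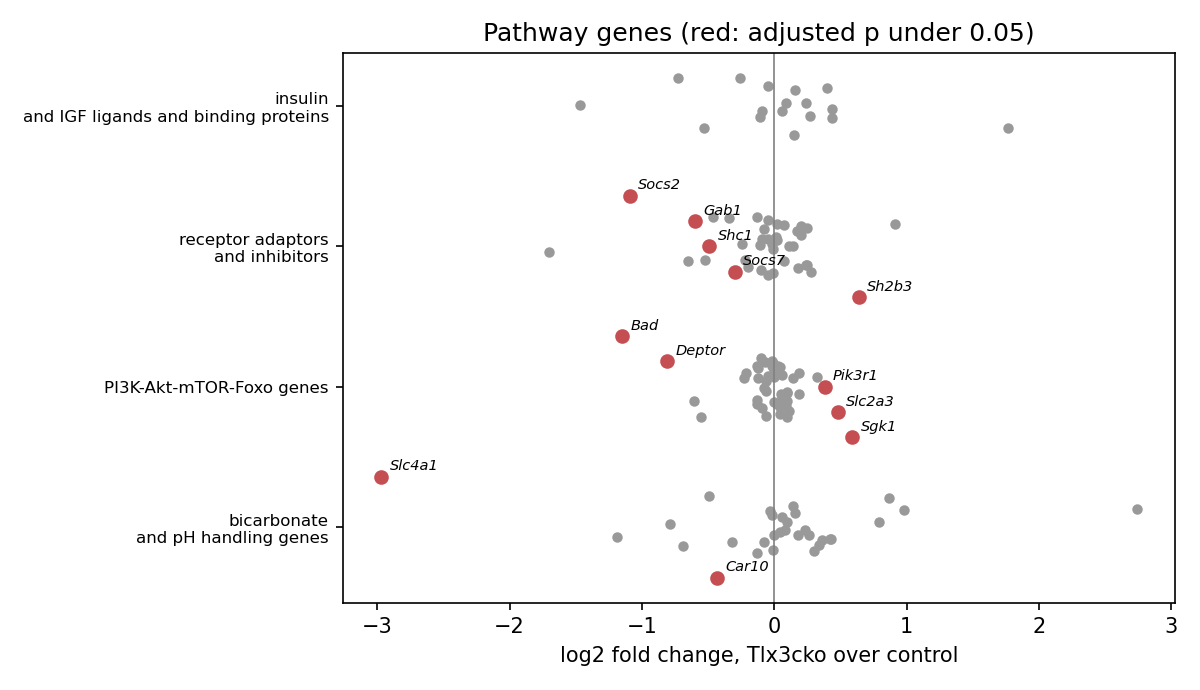
Log2 fold change, Tlx3cko over control, of tested genes of 4 pathway lists, with 1 point per gene (1 of the 13 genes past the threshold is not drawn), red where the adjusted p was under 0.05, and vertical spread within a list only for legibility. The red points are split between both directions, from Slc4a1 at -2.97 to Sh2b3 at 0.64, and none lies among the ligands and binding proteins.

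Irs3, a substrate gene of rodents that is no member of the group above and was chosen after its values were seen, had 32, 118 and 57 counts in control against 29, 10 and 10 in Tlx3cko libraries. The groups did not overlap, but Tlx3cko replicate 1 came close to control replicate 1. On the log2 scale it stood at -1.93 (SE 0.50, adjusted p = 0.0481 by edgeR's quasi-likelihood test). The call was lost in 8 of 14 alternatives, among them the fits without control replicate 2 (adjusted p = 0.29), control replicate 3 (0.0591), Tlx3cko replicate 2 (0.184) and Tlx3cko replicate 3 (0.178). Against control replicate 3 alone the log2 fold change of Irs3 was -1.40.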

How the data were processed

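DRG libraries (NEBNext Ultra kit, Illumina HiSeq, 150-base paired reads) came from 3 control and 3 Tlx3cko mice. The authors deposited raw read counts per gene, without normalization; the submitters' processing notes name STAR 2.5.2a and mm10, and the counting program, annotation and use of strand are not given in the sources used here. Gene names, exons and positions came from GENCODE M21 on GRCm38. Of 47937 rows, 47224 matched a symbol.

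Genes with at least 10 counts in total were scaled by TMM and went into edgeR's quasi-likelihood test (edgeR 4.0.16, limma 3.58.1 and DESeq2 1.42.0 in R 4.3.3), with Benjamini-Hochberg adjustment over all 20006 genes. Standard errors (SE) are the log2 fold change divided by the root of F. Library totals limit the precision of scarce genes. Replicates differed by 4.46 to 10.7 chi-square units per degree of freedom, more than sampling noise, and how the sequenced animals were related is not given in the sources used here. Near-identical transcripts were searched with blastn 2.17.0+.

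Named genes were the members, Tlx3, the tested neighbours of Insrr within 100 kb, genes past the threshold and the most abundant gene of each list, the 5 genes with the highest and lowest r (log2 of normalized counts plus 1), and the sex markers. Some genes and 1 sequence that fall under this rule are not reported here. Members and lists were chosen with earlier results of these data known. Alternatives were DESeq2, limma-voom, other normalizations and filters, a replicate block, each library left out, and control replicate 3 alone.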

Additional observations from a re-analysis of the deposited data

How the results depend on the processing

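The count of 851 genes past the threshold became 1529 with no filter on low counts, 546 against control replicate 3 alone, and 488 to 938 when 1 library was left out. The 13 pathway genes past it became 21 with DESeq2, 26 with no filter, 7 against control replicate 3 alone, and 8 to 14 when 1 library was left out. The cause was not tested. The log2 fold change of Insrr stayed between 2.96 and 3.77 over 14 alternatives, and its neighbour Pear1 was called in all 14. Values near 0 changed sign: Igf1r reached -0.075 against control replicate 3 alone and -0.023 to 0.17 when 1 library was left out (-0.011, -0.021 and -0.023 without Tlx3cko replicate 2, control replicate 2 and Tlx3cko replicate 3), Insr ranged from -0.009 (without control replicate 2) to 0.252, and Prcc from -0.026 to 0.125, with -0.011, -0.012 and -0.026 without Tlx3cko replicate 1, control replicate 1 and control replicate 3.

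With the replicate number as a replicate block, 770 genes and 13 pathway genes passed, and Insrr stood at 3.281. The numbers did not pair the samples, since same-numbered libraries correlated at -0.087, -0.018 and -0.096 in their deviations from the group means. Under the block, Sgk1 (adjusted p = 0.0503), Socs7 (0.079) and Irs3 (0.0506) were not called by edgeR. With Spearman's rho, 5 of the 10 genes most and least like Insrr stayed in the list, and with DESeq2 size factors 10 of 10. Over 6 libraries many genes tie in rho, and ties were ordered by gene identifier. The count under rho is therefore no measure of stability. With the longest transcript as length, 10 of 12 positions in the order stayed. Insrr rested on 24 to 67 counts per control library, and Irs1 on 94 to 127 counts per library, which limits both.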
